A study of Mus musculus with 26 samples.

Results

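Primitive endoderm is the extraembryonic layer that forms beside the epiblast in the blastocyst, and 8 genes that regulate or mark it were followed in the RNA of mouse embryonic stem cells (mESCs), over 15 sequenced libraries. The genes were taken by name from the 24015 genes in the deposited tables. They comprised the transcription factors Gata4, Gata6, Sox7, Sox17 and Foxa2, the growth factor receptor Pdgfra, the endocytic adaptor Dab2 and the endocytic receptor Cubn (cubilin).

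The study asked how Prdm14, a DNA-binding repressor of differentiation genes in pluripotent and germ cells, works together with Mtgr1 (gene symbol Cbfa2t2), a co-repressor of the ETO family. All lines were Stella:GFP mESCs kept in 2i+LIF, a serum-free medium with leukemia inhibitory factor (LIF), the MEK inhibitor PD0325901 at 0.8 µM and the GSK3β inhibitor CHIR99021 at 3.3 µM. RNA was then taken after 5 days in serum+LIF, except for the 2 wt libraries titled 2i. The 7 conditions were wt in serum+LIF (1 library), wt in 2i+LIF (2), Prdm14-/- (clones G6 and F10), FH-Prdm14 (a FLAG- and HA-tagged Prdm14 put back into the same 2 clones), E294K (the tagged protein with a single amino acid exchange, in the same 2 clones), Mtgr1-/- (clones A3, C1 and C3) and FH-Mtgr1 (tagged Mtgr1 put back into these 3 clones). Every knockout came from CRISPR-Cas9 targeting, and each mutant library is 1 clone or its derivative. The p-values therefore measure a spread pooled over the conditions, between clones in the mutant lines and between the 2 libraries in wt 2i+LIF. Wt serum+LIF, with 1 library, adds nothing to it.

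In the blastocyst, FGF signalling through MEK and ERK pushes inner cell mass cells towards Gata6, which is followed by Pdgfra, Sox17, Gata4 and Sox7 as primitive endoderm matures. The layer later yields visceral endoderm, where the endocytic receptors cubilin and megalin (Lrp2) work with the adaptor Dab2 to take up maternal nutrients, and parietal endoderm, which lays down a thick basement membrane. Cultures of mESCs hold few cells with this program, and MEK inhibition in 2i represses it.

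Values are RPKM, read counts scaled by exon length and by the depth of the library, so levels can be set side by side between genes. The libraries held between 10668572 and 21218414 reads in genes, with a median of 13793727. Pou5f1, the defining pluripotency factor, lay between 308.5 and 942.9 RPKM in every library, whereas the 8 genes never exceeded 8.36 RPKM. Prdm14 was at 1.96 and 3.60 RPKM in the Prdm14-/- libraries, against 79.9 and 116 in FH-Prdm14 and 89.9 and 105 in E294K. In wt it stood at 2.77 in serum+LIF, inside the knockout range (log2 difference -0.04, limma, adjusted p = 0.958), and at 30.8 and 19.1 in 2i+LIF. Comparisons with FH-Prdm14 are thus with a transgene level far above that of wt serum+LIF. Cbfa2t2 reads were still present in Mtgr1-/-, at 18.02 to 19.9 RPKM against 25.5 to 28.0 in FH-Mtgr1 and 40.7 in wt, and reads of a targeted gene say nothing of its protein. In the annotation of the NCBIM37 (mm9) genome, Gata4 spans chr14:63817759-63890529 (minus strand) and Sox7 chr14:64562511-64569569 (plus strand). Sox17 lies at chr1:4481009-4486494 (minus), Foxa2 at chr2:147868613-147872705 (minus), Pdgfra at chr5:75548316-75594229 (plus), Dab2 at chr15:6249788-6390712 (plus) and Cubn at chr2:13197965-13413551 (minus).

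Gata4, a zinc finger factor that drives the endoderm program, had the highest median level of the 5 factors, 2.67 RPKM. It stood at 2.67 RPKM in wt serum+LIF and at 3.73 and 3.31 in wt 2i+LIF. The Mtgr1-/- clones A3, C1 and C3 had 0.686, 1.22 and 1.51, and their FH-Mtgr1 derivatives had 4.02, 5.61 and 5.21. Prdm14-/- gave 1.78 in G6 and 5.69 in F10, FH-Prdm14 gave 1.03 and 0.917, and E294K gave 1.74 and 2.69, in the same clone order. Every FH-Mtgr1 library was thus above every Mtgr1-/- library, and every Prdm14-/- library above every FH-Prdm14 library, but the 2 Prdm14-/- clones were far apart.

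Gata6, the earliest of these factors in the embryo, spread more widely as a ratio, its highest level being 12.9 times its lowest beside 8.30 times for Gata4. Its levels were 0.364, 0.589 and 1.13 RPKM in Mtgr1-/- (A3, C1 and C3) and 1.88, 3.20 and 4.28 in FH-Mtgr1. Prdm14-/- had 1.54 in G6 and 4.68 in F10, FH-Prdm14 had 1.61 and 1.34, and E294K had 1.18 and 1.54. Wt stood at 1.56 in serum+LIF and at 0.998 and 1.05 in 2i+LIF. Mtgr1-/- and FH-Mtgr1 did not overlap, whereas the G6 knockout library sat inside the FH-Prdm14 range, so that only F10 stood above it.

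The SoxF factors Sox17 and Sox7, which act in endoderm and in endothelium, were low throughout. Sox17 measured 0.189, 0.284 and 0.604 RPKM in Mtgr1-/- and 0.726, 0.990 and 1.17 in FH-Mtgr1. It reached 0.800 in G6 and 2.68 in F10 of Prdm14-/-, against 1.29 and 0.828 in FH-Prdm14 and 0.368 and 0.669 in E294K. Wt had 0.477 in serum+LIF and 0.321 and 0.0763 in 2i+LIF. The 2.68 RPKM of the F10 knockout was the highest Sox17 level among the 15 libraries. Sox7 had another order of conditions: by mean it was highest in FH-Prdm14 (1.14 and 0.868), followed by E294K (0.712 and 0.895), and these libraries overlapped. It stayed between 0.143 and 0.770 in the other 11 libraries, where FH-Mtgr1, up to 0.770, overlapped E294K. Foxa2, a forkhead factor of visceral and definitive endoderm, rested on 1 to 21 reads a library and never passed 0.690 RPKM, so that its order of conditions cannot be read at this depth. Sox7 rested on 6 to 48 reads.

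Pdgfra, the receptor for PDGF ligands by which primitive endoderm cells are recognised in the embryo, was highest in FH-Mtgr1. The 3 rescue libraries had 1.32, 1.73 and 2.30 RPKM and the Mtgr1-/- libraries of the same clones 0.468, 0.550 and 0.734. Prdm14-/- gave 0.474 (G6) and 1.08 (F10), FH-Prdm14 0.381 and 0.246, E294K 0.420 and 0.642, and wt 0.524 in serum+LIF and 0.0974 and 0.104 in 2i+LIF. The FH-Mtgr1 libraries stood apart from all 12 others, and the 2i+LIF libraries were the lowest of the 15.

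Dab2 and Cubn, the adaptor and one of the receptors of the endocytic machinery, did not follow the factors. Dab2 was high in both knockouts: it measured 5.43, 5.65 and 6.22 RPKM in Mtgr1-/- and 4.29 (G6) and 5.29 (F10) in Prdm14-/-. It was 8.36 (F10) and 5.31 (G6) in E294K, against 0.992 (G6) and 0.658 (F10) in FH-Prdm14. In FH-Mtgr1 it stood at 3.76, 5.34 and 4.74, in wt serum+LIF at 1.74 and in wt 2i+LIF at 0.405 and 0.287. The FH-Prdm14 and the wt libraries were therefore the low ones, whereas FH-Mtgr1 remained above wt serum+LIF in all 3 clones.

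Cubn ran from 0.0276 to 6.25 RPKM, 226.6 times from lowest to highest, the largest such ratio of the 8 genes. The extremes were wt 2i+LIF (0.0745 and 0.0276) and E294K (6.25 in F10 and 3.17 in G6). Between them lay FH-Prdm14 at 0.509 (G6) and 0.470 (F10), Prdm14-/- at 0.807 (G6) and 3.10 (F10), wt serum+LIF at 1.28, Mtgr1-/- at 1.22, 1.60 and 1.29, and FH-Mtgr1 at 1.82, 2.73 and 2.24. The FH-Prdm14 and 2i+LIF libraries each stood apart from all other conditions. Across the exons of Cubn an antisense noncoding gene, Gm13270, overlaps by 161 bases, and for Gata6 the antisense gene 1010001N08Rik overlaps by 58 bases (0 to 0.314 RPKM). The strand setting of the counting is not given in the sources used here, so reads of such a pair cannot be told apart.

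**Figure D1:**
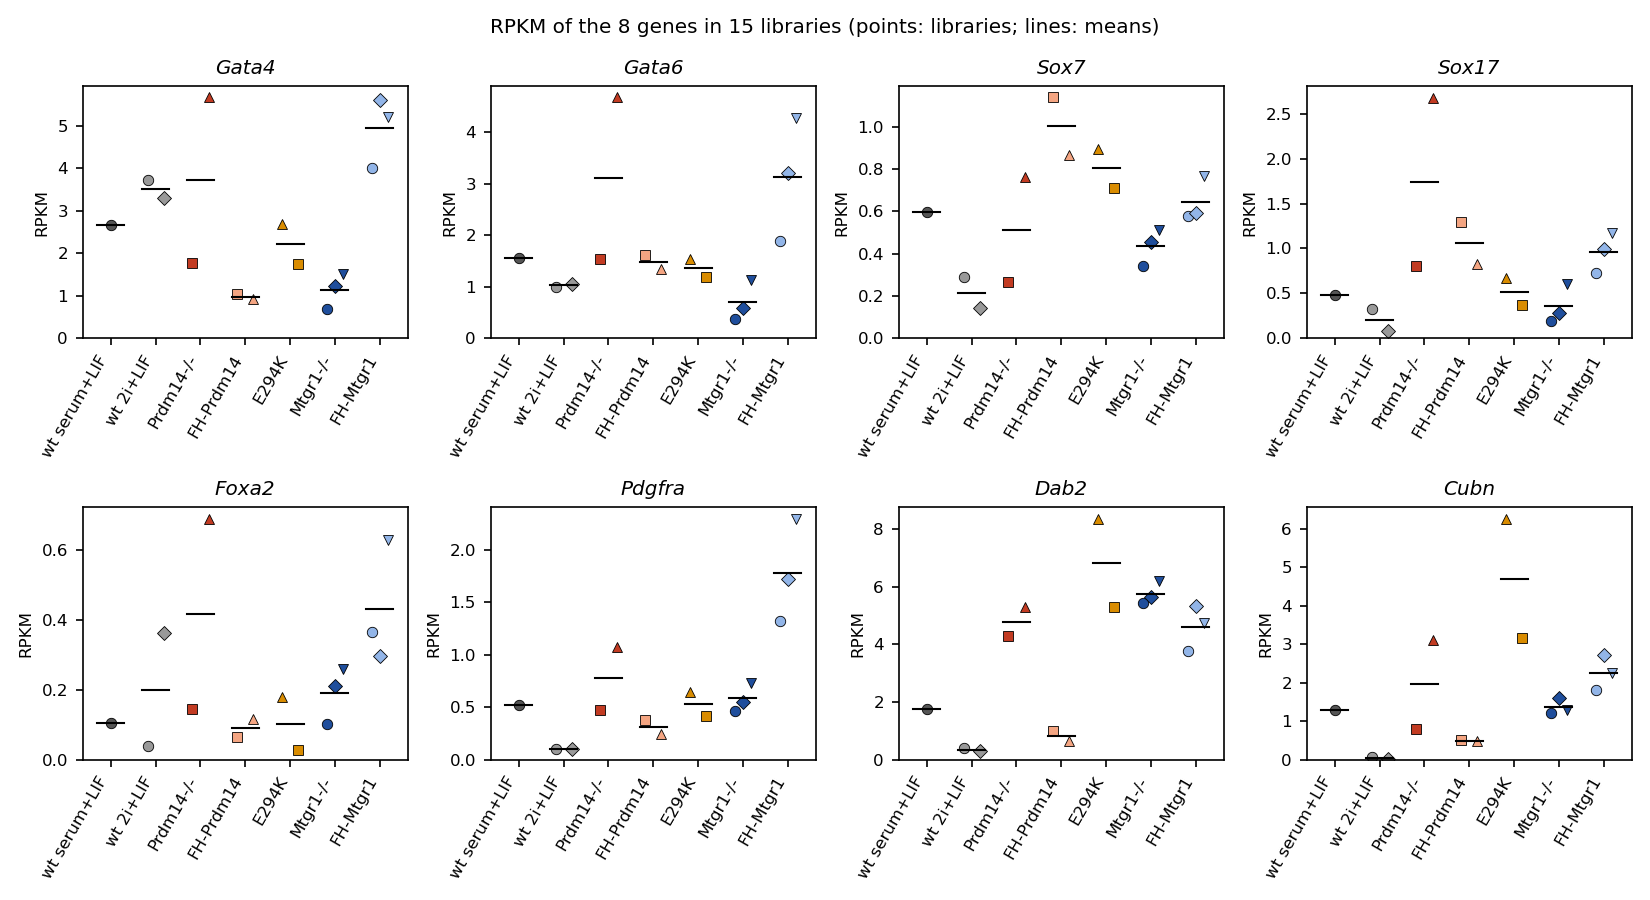
RPKM (vertical axis, linear, 1 panel a gene) of the 8 genes in each of the 15 libraries, grouped by condition. Each point is 1 library, lines are condition means, and a given marker shape is the same clone within the Prdm14 lines (square, G6; upward triangle, F10) and within the Mtgr1 lines (circle, A3; diamond, C1; downward triangle, C3). Gata4 and Gata6 are low in Mtgr1-/- and high in FH-Mtgr1, and Pdgfra is highest in FH-Mtgr1. Dab2 is high in both knockouts, in E294K and in FH-Mtgr1, and Cubn peaks in E294K.

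Differences between conditions were tested with limma on log2(RPKM + 0.5) over all 15 libraries in 1 fit, for the 13477 genes that reached 1 RPKM in 2 or more libraries, at a Benjamini-Hochberg adjusted p of 0.05. Because of the added 0.5, the fold changes understate those of low genes. Of the 8 genes 6 passed this filter, and Sox7 and Foxa2 did not. As every library is a bulk culture, fewer cells with this program and less RNA of it per cell cannot be told apart.

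Mtgr1-/- was compared with FH-Mtgr1 to ask what putting Mtgr1 back does in the same clones. Gata4, Gata6 and Pdgfra were lower without Mtgr1, so 3 of the 6 tested genes fell, where 26.1% of all tested genes fell and 26.2% rose. Gata4 had 1.14 ± 0.418 RPKM (SD, n = 3) in Mtgr1-/- and 4.95 ± 0.829 (n = 3) in FH-Mtgr1, a log2 fold change of -1.75 with a standard error of 0.32 (limma, adjusted p = 0.00065). Gata6 fell by 1.59 on the log2 scale (SE 0.34, limma, adjusted p = 0.00213) and Pdgfra by 1.06 (SE 0.22, adjusted p = 0.00173). Pdgfra reached 1 RPKM in 4 libraries, the 3 of FH-Mtgr1 and the F10 Prdm14 knockout. It thus entered the test through the condition in which it is high, and its part in the count of 3 is limited by this. Gata4, Gata6 and Pdgfra, 2 transcription factors and a receptor of the early program, were each lower in 3 of 3 clone pairs. The same held for Sox17, Cubn, Sox7 and Foxa2, whereas Dab2 was higher in 3 of 3, so the pairs do not set the called genes apart. Sox17 (-0.79, limma, adjusted p = 0.0525), Cubn (-0.56, adjusted p = 0.164) and Dab2 (0.30, adjusted p = 0.199) did not pass. The median log2 fold change of the 6 genes was -0.92, beside -0.01 for all tested genes.

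Prdm14-/- was compared with FH-Prdm14, the same question for Prdm14. Here Dab2 and Gata4 were higher without Prdm14, so 2 of 6 genes rose, where 11.4% of all tested genes rose and 13.8% fell. Dab2 rose by 2.00 on the log2 scale (SE 0.23, limma, adjusted p = 0.000118), from a mean of 0.825 to 4.79 RPKM. Gata4 rose by 1.35 (SE 0.39, limma, adjusted p = 0.0236). For Dab2 both knockout clones lay far above both rescue lines, and for Gata4 the size of the difference depended on clone F10: without that library Gata4 gave 0.63 (limma, adjusted p = 0.193). Leaving out either FH-Prdm14 library also lost the Gata4 call, with adjusted p = 0.0878 without G6 and 0.118 without F10 (limma). Cubn (1.13, adjusted p = 0.0532), Pdgfra (0.61, adjusted p = 0.123), Gata6 (0.72, adjusted p = 0.239) and Sox17 (0.40, adjusted p = 0.49) did not pass. When the clone was added to the fit as a block, Cubn passed (adjusted p = 0.0334 in limma). The median of the 6 genes was 0.93 and that of all tested genes -0.09.

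E294K, the form of Prdm14 for which the paper reports no detectable binding of Mtgr1, was compared with FH-Prdm14 at like transgene levels. The endocytic genes stood out: Dab2 and Cubn rose, 2 of 6 genes, where 6.35% of all tested genes rose and 13.2% fell. Dab2 rose by 2.45 on the log2 scale (SE 0.23, limma, adjusted p = 6.16e-05), and Cubn by 2.33 (SE 0.39, adjusted p = 0.00188), from a mean of 0.489 to 4.71 RPKM. Both E294K clones were above both FH-Prdm14 lines for these genes, and the calls held without any 1 of the 4 libraries. Among the factors, Gata4 (0.86, limma, adjusted p = 0.138), Gata6 (-0.09, adjusted p = 0.904) and Sox17 (-0.61, adjusted p = 0.28) did not pass, nor did Pdgfra (0.34, adjusted p = 0.404). The median of the 6 genes was 0.60, beside -0.06 for all tested genes.

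**Figure D2:**
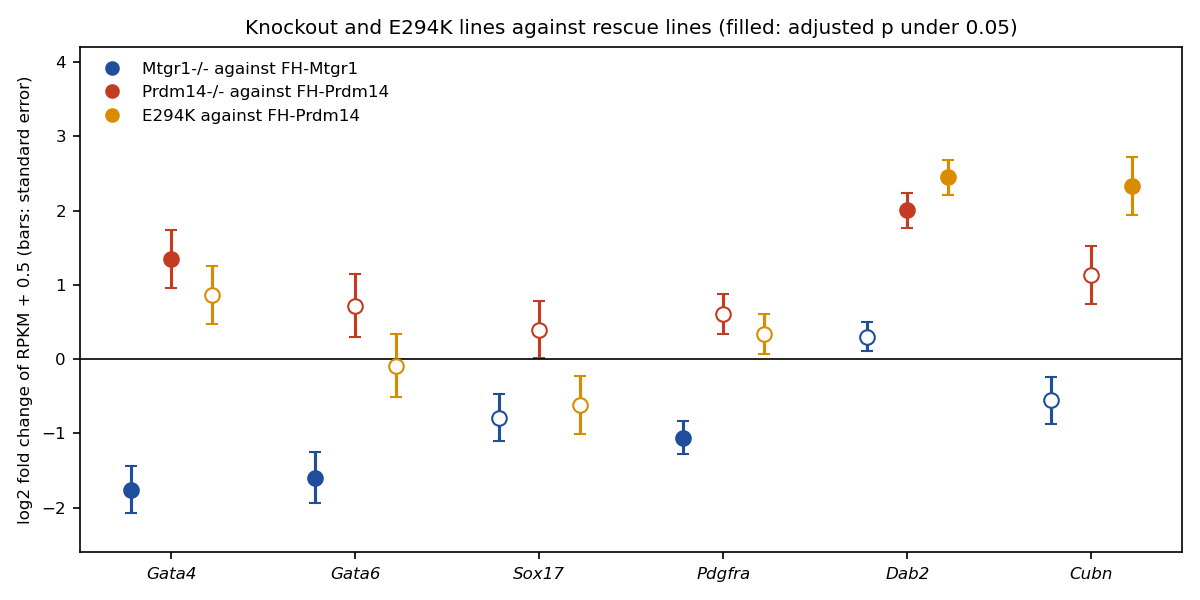
Log2 fold change on the log2(RPKM + 0.5) scale (vertical axis) for the 6 tested genes, for Mtgr1-/- against FH-Mtgr1 (blue), Prdm14-/- against FH-Prdm14 (red) and E294K against FH-Prdm14 (orange). Bars are standard errors of the fit over 15 libraries, and filled points passed an adjusted p of 0.05. The last 2 share the FH-Prdm14 libraries. Gata4 lies at -1.75 for Mtgr1 and at 1.35 for Prdm14, and Dab2 at 2.00 and 2.45 in the Prdm14 lines.

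E294K was also set against the knockout it was put into. Cubn alone passed, higher in E294K by 1.20 (SE 0.39, limma, adjusted p = 0.0356), 1 of 6 genes where 15.1% of all tested genes were higher and 17.8% lower. Sox17 gave -1.01 (adjusted p = 0.0608), Gata6 -0.81 (adjusted p = 0.154), Gata4 -0.49 (adjusted p = 0.343), Pdgfra -0.27 (adjusted p = 0.457) and Dab2 0.45 (adjusted p = 0.157). The Cubn call rested on single libraries: it was lost without the G6 knockout (0.47) and without the F10 E294K line (0.76). Without the G6 knockout, Gata4, Gata6 and Sox17 were instead called lower in E294K.

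The knockouts differed directly from each other in the factors. In Mtgr1-/- against Prdm14-/-, Gata6 (-1.49, SE 0.39, limma, adjusted p = 0.0105), Sox17 (-1.27, SE 0.35, adjusted p = 0.0148) and Gata4 (-1.23, SE 0.35, adjusted p = 0.018) were lower, 3 of 6 genes where 21.1% of all tested genes were lower and 14.4% higher. Dab2 (0.25, adjusted p = 0.39), Cubn (-0.22, adjusted p = 0.669) and Pdgfra (-0.20, adjusted p = 0.563) did not pass. All 3 calls were lost without the F10 knockout library, with Gata6 at -0.82 (limma, adjusted p = 0.149), Sox17 at -0.63 (adjusted p = 0.202) and Gata4 at -0.51 (adjusted p = 0.253), and 0 of the 6 genes then had an unadjusted p under 0.05. Without Mtgr1-/- clone A3, Gata6 alone was called.

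Wt serum+LIF has 1 library, and in the comparisons with it that library is assumed to vary like the others. Against it, Dab2 rose in both knockouts, by 1.48 (SE 0.27, limma, adjusted p = 0.00146) in Mtgr1-/- and by 1.23 (SE 0.29, adjusted p = 0.012) in Prdm14-/-. It was the 1 gene of 6 called in each, where 14.9% of all tested genes rose and 22.1% fell in Mtgr1-/-, and 11.7% rose and 13.7% fell in Prdm14-/-. Gata4 in Mtgr1-/- (-0.99, adjusted p = 0.102), Gata6 in Mtgr1-/- (-0.83, adjusted p = 0.197) and Sox17 in Prdm14-/- (1.06, adjusted p = 0.113) did not pass. Of the genes called against the rescues, Pdgfra in Mtgr1-/- stood at 0.07 against wt (SE 0.31, limma, adjusted p = 0.87) and Gata4 in Prdm14-/- at 0.24 (SE 0.48, adjusted p = 0.725). Without the G6 knockout, Sox17 passed as well (1.70, limma, adjusted p = 0.0382). These 2 comparisons share the wt library.

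In wt cells, 2i+LIF was compared with serum+LIF. The media differ in serum and base medium as well as in the MEK and GSK3β inhibitors, and these cannot be told apart. Dab2 fell by 1.41 (SE 0.29, limma, adjusted p = 0.00528) and Cubn by 1.69 (SE 0.48, adjusted p = 0.026), 2 of 6 genes where 13.6% of all tested genes fell and 9.28% rose. Without the second 2i library Cubn missed the threshold (adjusted p = 0.0507, limma). Gata4 did not follow, with 0.34 (adjusted p = 0.638), nor did Gata6 (-0.43, adjusted p = 0.575) or Pdgfra (-0.77, adjusted p = 0.114) pass. Both 2i libraries had more Gata4 and less of each of the other genes except Foxa2 than the serum library. Rescaling the libraries by the median of ratios moved the median of all genes by 0.11 here and by 0.13 in Mtgr1-/- against wt, and by at most 0.07 in the other comparisons.

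Whether loss of Mtgr1 and loss of Prdm14 differed in effect, each against its own rescue, was tested as a difference of differences, added after the other comparisons were set. All 6 tested genes had a negative value and 5 passed, where 14.3% of all tested genes were lower and 17.1% higher. Pdgfra entered the test through FH-Mtgr1 and the F10 knockout, which both count negatively here, so its part in the 5 is limited. Gata4 gave -3.10 (SE 0.50, limma, adjusted p = 0.000933), Gata6 -2.31 (SE 0.55, adjusted p = 0.00751) and Pdgfra -1.67 (SE 0.35, adjusted p = 0.00401). Dab2 gave -1.70 (SE 0.30, limma, adjusted p = 0.00164), Cubn -1.69 (SE 0.51, adjusted p = 0.0249) and Sox17 -1.18 (SE 0.50, adjusted p = 0.0879). For Gata4 the single effects had opposite signs and both passed. For Dab2 its rise of 2.00 in Prdm14-/- stood beside 0.30 in Mtgr1-/-, which did not pass. Each value holds both rescues as well as both knockouts. Of the 5 genes, Gata4 and Gata6 alone also passed between the knockouts directly. Cubn alone of these 5 lost its call when a library was left out, with adjusted p = 0.103 without the F10 knockout, 0.0685 and 0.0746 without FH-Prdm14 G6 and F10, and 0.0535 without FH-Mtgr1 C1 (limma).

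In the comparisons above, no gene of the 6 passed in the direction not named. At an unadjusted p under 0.05 in limma the opposite direction held 1 gene in Mtgr1-/- against wt (Gata4) and 1 in E294K against Prdm14-/- (Sox17), and 0 in the others. With voom on the reads these numbers were the same apart from 1 gene in Prdm14-/- against FH-Prdm14. With the filter lowered to 0.2 RPKM in 2 or more libraries (16445 genes), Sox7 and Foxa2 entered the test and did not pass in any comparison. Their lowest adjusted p were 0.0728 for Sox7 (-0.61, Prdm14-/- against FH-Prdm14) and 0.0686 for Foxa2 (-0.99, the difference of differences).

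The clones of the Prdm14 lines were then compared with each other. In Prdm14-/-, all 8 genes were higher in F10 than in G6, by 1.23-fold (Dab2) to 4.74-fold (Foxa2) in RPKM, with a median of 3.12-fold. Over 13293 tested genes with reads in both libraries the median was 1.03-fold, 53.8% were higher in F10, and 2.76% were higher by at least 2-fold. In E294K all 8 were again higher in F10, by 1.26-fold to 6.79-fold with a median of 1.56-fold, the Foxa2 value resting on 7 reads against 1. In FH-Prdm14, by contrast, 1 of 8 was higher in F10 (Foxa2, 4 reads against 2), with a range of 0.640 to 1.78 and a median of 0.797. Of all tested genes with reads in both libraries, 51% were higher in F10 in E294K and 47% in FH-Prdm14. There is 1 library a clone and condition, so these ratios have no replicate check. The factor level added up to 4.53 RPKM over the 5 factors in the G6 knockout and to 14.5 in the F10 knockout.

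**Figure D3:**
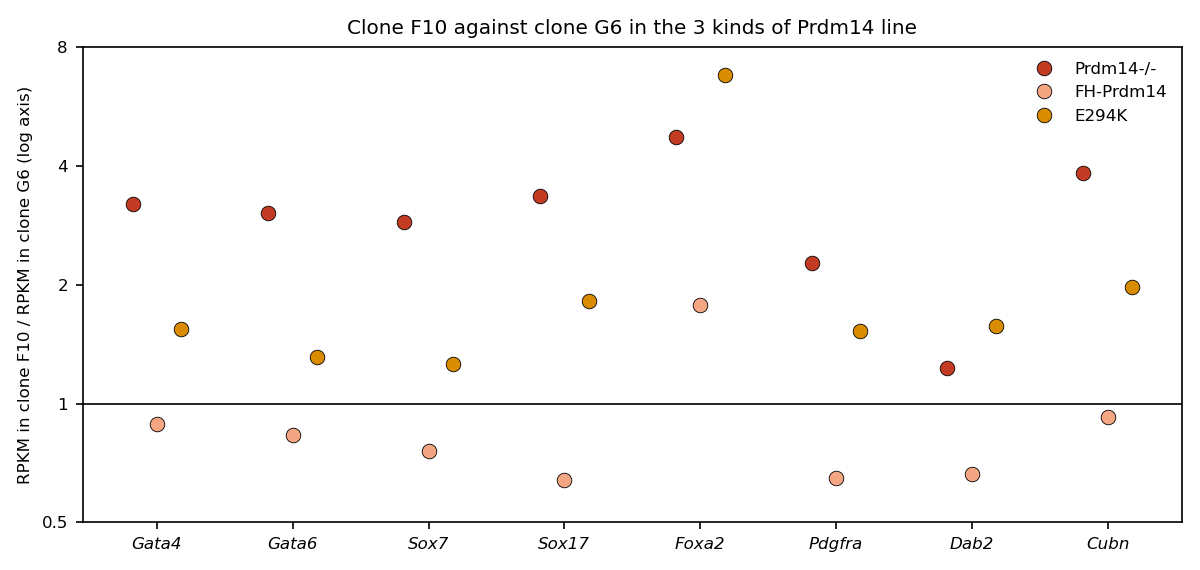
Ratio of RPKM in clone F10 to clone G6 (vertical axis, log scale) for each of the 8 genes in Prdm14-/-, E294K and FH-Prdm14. The line at 1 marks equal levels, and each point is a ratio of 2 single libraries. All 8 points lie above the line in Prdm14-/- and in E294K, and 1 of 8 in FH-Prdm14.

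Among themselves, the 8 genes were related to different degrees. Over the 15 libraries, Pearson's r on the log2(RPKM + 0.5) scale was 0.87 for Dab2 with Cubn, 0.83 for Gata6 with Sox17 and 0.76 for Gata4 with Gata6. Pdgfra was related to both kinds, with 0.71 for Gata6, 0.67 for Cubn and 0.65 for Dab2. The value was 0.06 for Gata4 with Dab2 and 0.18 for Gata6 with Dab2, and the lowest value was -0.04, for Gata4 with Sox7. On ranks the order differed: Spearman's rho was 0.87 for Gata6 with Sox17, 0.73 for Pdgfra with Cubn and 0.72 for Dab2 with Cubn. The points share clones and conditions, so these are descriptions. The ratio of Dab2 to Gata4 was 4.12 to 7.91 in Mtgr1-/-, 3.05 and 3.10 in E294K, 2.41 and 0.928 in Prdm14-/-, 0.909 to 0.951 in FH-Mtgr1, 0.717 and 0.961 in FH-Prdm14, 0.652 in wt serum+LIF and 0.0866 and 0.109 in 2i+LIF. The 3 Mtgr1-/- libraries had the highest ratios and the 2i+LIF libraries the lowest, whereas FH-Mtgr1, FH-Prdm14 and the F10 knockout overlapped.

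**Figure D4:**
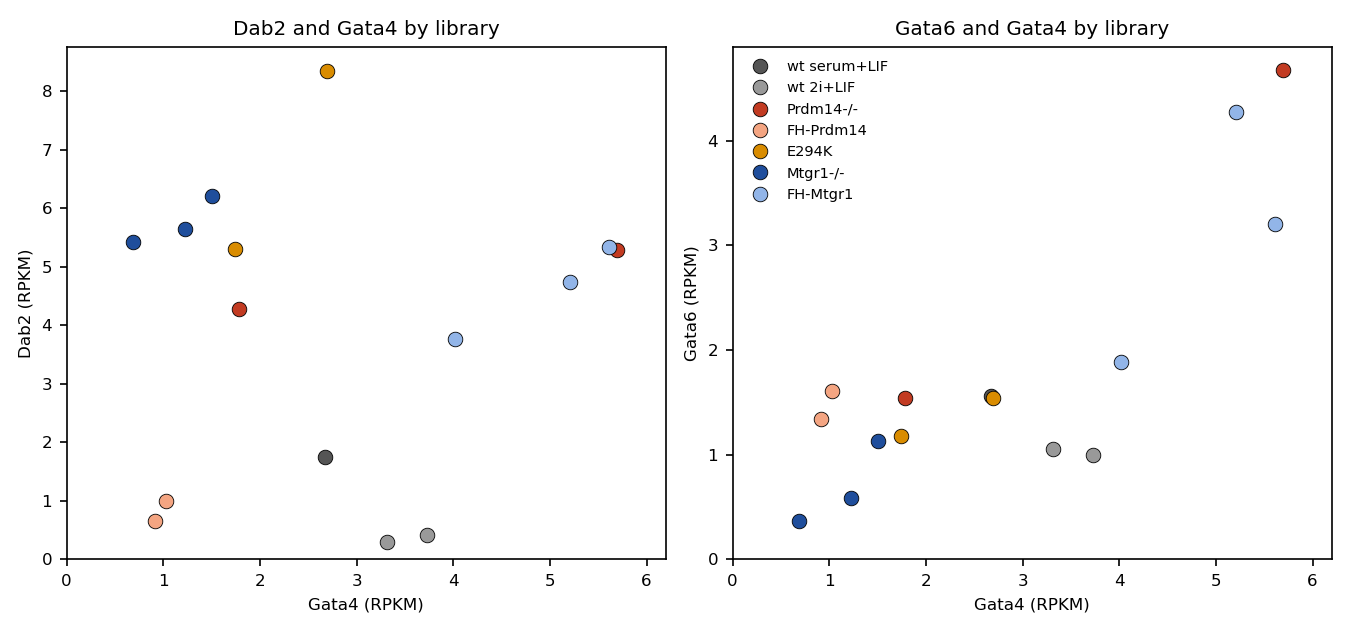
Dab2 against Gata4 (left) and Gata6 against Gata4 (right), in RPKM on linear axes, with 1 point a library and colours for the 7 conditions. On the left the Mtgr1-/- and E294K libraries combine high Dab2 with low to middling Gata4, and on the right Gata6 and Gata4 are highest together in FH-Mtgr1 and the F10 Prdm14 knockout.

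Genes whose pattern over the 15 libraries was most like that of each member were named by the highest Pearson's r among tested genes that reach 5 RPKM. For Dab2 these were Zfp608 (0.93), the de novo DNA methyltransferase Dnmt3b (0.91) and Grhl2 (0.91), and for Cubn the methyltransferase Dnmt3a (0.89), Ptgr1 (0.87) and Pdcl3 (0.84). Gata4 was closest to Cdk5r2 (0.88), the glycolytic enzyme Tpi1 (0.87) and Dynlt3 (0.84). Gata6 was closest to Tex101, Rgs11 and Pebp1 (0.87 each), Sox17 to Mrgbp (0.87), Acot1 (0.85) and 6430531B16Rik (0.84), and Pdgfra to Bub3 (0.91), Naa20 (0.90) and Gclm (0.90). The lists of the 6 members shared no gene, and none of the 18 genes is in the endoderm marker lists.

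Promoters are shown for Dab2 and Cubn, the pair with the highest Pearson's r, in a window around the annotated start of transcription. They come from RefSeq on the GRCm38.p6 build, a later build than the mm9 coordinates above. Of the 8 genes 4 had an entry, with 7 windows in all (Cubn, Pdgfra, 2 for Dab2 and 3 for Foxa2). Capitals mark the letters AGATAA or TGATAA, or the same ending in G, on either strand, the core that GATA factors bind. Of the 2 Dab2 windows, the one that holds such letters is printed. The first sequence is chr15:6299539-6299838 (plus strand) and the second chr2:13491827-13492126 (minus strand), each read 5′ to 3′ on the gene's strand.
Dab2: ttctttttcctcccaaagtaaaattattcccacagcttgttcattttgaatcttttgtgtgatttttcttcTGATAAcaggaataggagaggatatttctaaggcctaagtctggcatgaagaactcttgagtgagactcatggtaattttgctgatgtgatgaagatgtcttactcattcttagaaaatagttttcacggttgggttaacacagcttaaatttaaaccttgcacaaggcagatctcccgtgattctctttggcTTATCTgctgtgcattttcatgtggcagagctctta
Cubn: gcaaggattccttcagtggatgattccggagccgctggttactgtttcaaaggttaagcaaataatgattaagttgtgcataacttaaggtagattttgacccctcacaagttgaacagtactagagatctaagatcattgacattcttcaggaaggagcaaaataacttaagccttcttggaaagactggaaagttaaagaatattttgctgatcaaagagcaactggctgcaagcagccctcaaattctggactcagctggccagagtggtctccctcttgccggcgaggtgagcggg
The printed Dab2 window held 2 such stretches, the other Dab2 window (chr15:6386498-6386797, plus strand) 0 and the Cubn window 0. Of the 7 windows 2 held at least 1, beside 29.8% of 32851 promoters. The letters AACAAT for Sox factors were in 0 of 7 windows (10.7% of all promoters), with both strands searched. The printed Dab2 window was 37.7% G or C, the other Dab2 window 59.3% and the Cubn window 44.3%, beside a median of 52.7% over all promoters. The match of letters is a description of these windows and not a site.

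The partners of Dab2 and Cubn in endocytosis were followed next. Lrp2, the megalin receptor, was more abundant than Dab2 by the mean of every condition in serum+LIF: it had 65.7 and 56.2 RPKM in Prdm14-/-, 4.23 and 3.43 in FH-Prdm14, and 11.2 and 14.3 in E294K (G6 and F10). In Mtgr1-/- it had 24.2, 20.9 and 33.8 and in FH-Mtgr1 4.37, 5.37 and 5.20, beside 3.17 in wt serum+LIF. Lrp2 rose in Prdm14-/- by 3.83 on the log2 scale (limma, adjusted p = 3.01e-06), in Mtgr1-/- by 2.27 (adjusted p = 6.74e-06) and in E294K by 1.61 (adjusted p = 0.00124), each against its rescue. In FH-Mtgr1, Lrp2 averaged 4.98 RPKM beside 26.3 in the knockout, whereas Dab2 averaged 4.61 beside 5.77. Lrpap1, the chaperone of Lrp2, rose in Prdm14-/- against FH-Prdm14 (1.51, limma, adjusted p = 0.00715). Amn, which anchors cubilin in the membrane, did not pass in Mtgr1-/- (-0.40, limma, adjusted p = 0.235), Prdm14-/- (0.04, adjusted p = 0.948) or E294K (-0.45, adjusted p = 0.373) against the rescues. Against the single wt serum+LIF library it gave 1.29 in Prdm14-/-. Its means were 5.485 RPKM in Prdm14-/-, 5.32 in FH-Prdm14 and 1.91 in wt serum+LIF. Gipc1, an adaptor of Lrp2, passed in none of the 8 comparisons. Against the rescues, 1 of these 4 genes rose in Mtgr1-/- (beside 26.2% of all tested genes), 2 in Prdm14-/- (11.4%) and 1 in E294K (6.35%), so that the share in Mtgr1-/- was near that of all genes.

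The PDGF ligands did not move as their receptor Pdgfra did. In Mtgr1-/- against FH-Mtgr1, where Pdgfra fell, Pdgfc (2.14, limma, adjusted p = 7.94e-06) and Pdgfb (2.01, adjusted p = 4.49e-05) rose and the second receptor Pdgfrb fell (-0.90, adjusted p = 0.00306). In Prdm14-/- against FH-Prdm14, Pdgfb rose (1.78, adjusted p = 0.00115) and Pdgfc fell (-1.24, adjusted p = 0.00305). Pdgfa, the main ligand by level, passed in E294K against FH-Prdm14, where it fell by 1.71 (adjusted p = 0.0127), and did not pass in the knockouts against rescue. Pdgfd stayed between 0 and 0.594 RPKM. In 2i+LIF, where both Pdgfra levels were at the bottom, Pdgfc rose by 2.43 (adjusted p = 0.000298).

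The list counts that follow stand beside the shares of all tested genes that rose and fell, 26.2% and 26.1% in Mtgr1-/- against FH-Mtgr1, 11.4% and 13.8% in Prdm14-/- and 6.35% and 13.2% in E294K against FH-Prdm14, and 9.28% and 13.6% in 2i+LIF. Of the 9 genes of FGF and ERK input, 6 fell in 2i+LIF, led by the feedback inhibitors Spry4 (-4.59, limma, adjusted p = 1.14e-05) and Dusp6 (-2.89, adjusted p = 0.00153). In Mtgr1-/- against FH-Mtgr1, 4 rose and 1 fell, the ligand Fgf4 (-1.59, adjusted p = 6.06e-05), while Spry4 (1.36, adjusted p = 0.000367) and the receptor Fgfr2 (1.18, adjusted p = 0.00165) rose. In Prdm14-/- against FH-Prdm14, 3 rose and 5 fell, with Fgfr2 at 2.66 (adjusted p = 9.3e-05) and Etv4 at -1.84 (adjusted p = 0.000768), and in E294K 4 rose. Of the 7 tested paralogs of the 8 genes, among them Dab1 beside the Gata, Sox and Foxa factors, 4 rose and 1 fell in Mtgr1-/- against FH-Mtgr1. Dab1 was 1 of the 4 (0.62, adjusted p = 0.00749). Gata2, a factor of blood and trophoblast, rose by 2.78 (adjusted p = 1.37e-05), from 0.905 to 9.26 RPKM, opposite to Gata4 and Gata6 in the same libraries. In Prdm14-/- against FH-Prdm14, 1 paralog rose, Gata3 (1.82, adjusted p = 0.00263), and 3 fell, Foxa1 (-1.24, adjusted p = 0.00701), Sox18 (-1.35, adjusted p = 0.0256) and Dab1 (-0.65, adjusted p = 0.0334).

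Later derivatives of primitive endoderm gave a mixed picture. Of 14 tested parietal endoderm genes, 10 rose in Mtgr1-/- against FH-Mtgr1 (median 0.91), led by follistatin (Fst, 2.17, limma, adjusted p = 0.000144) and perlecan (Hspg2, 1.82, adjusted p = 0.000647). In Prdm14-/- against FH-Prdm14, 6 rose and 1 fell (median 0.51), with Serpinh1, a collagen chaperone, at 2.47 (adjusted p = 0.000102) and Nid1 at -1.64 (adjusted p = 4.43e-05), and in E294K 1 fell. Of 9 tested visceral endoderm genes, 3 rose and 4 fell in Mtgr1-/- against FH-Mtgr1: Apoe fell by 2.75 (adjusted p = 3.69e-06) and Hnf4a by 1.58 (adjusted p = 7.7e-05), and Amot rose by 2.56 (adjusted p = 2.33e-06). In Prdm14-/- 3 rose and 3 fell. The genes that define visceral endoderm were near 0, with Afp at 0 to 0.112 and Ttr at 0 to 0.212 RPKM over all libraries. Hnf4a, lowest in Mtgr1-/- at 0 to 0.114 RPKM, was 0.793 to 1.53 in FH-Mtgr1.

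Markers of other cell types moved in the same comparisons, and their part in the results for the 8 genes was not tested. The summed level of the trophoblast genes was 1392 to 2333 RPKM in Mtgr1-/- and 219 to 305 in FH-Mtgr1, and 871 to 1143 in Prdm14-/- against 47.0 to 62.8 in FH-Prdm14 and 137 to 139 in E294K. The keratins Krt8 and Krt18, which other epithelia also express, made up most of this sum, with means of 950.7 and 718 RPKM in Mtgr1-/- and 473 and 520.3 in Prdm14-/-. The trophoblast factors Cdx2 and Elf5 were at most 1.19 and 0.497 RPKM in any library. Hand1, Plac1 and Ascl2 of this list averaged 34.85, 13.97 and 13.78 RPKM in Mtgr1-/- beside 2.415, 0.2989 and 4.476 in FH-Mtgr1. In Prdm14-/- they averaged 4.578, 0.867 and 4.79 beside 1.141, 0.0687 and 6.793 in FH-Prdm14. Of 6 tested trophoblast genes, 6 rose in Mtgr1-/-, 3 in Prdm14-/- and 2 in E294K against the rescues, with the keratin Krt8 among them each time. Gata3 stands in this list and among the paralogs. Of 6 stem cell genes, 2 fell in Mtgr1-/-, 5 in Prdm14-/- and 4 in E294K, each against its rescue. Against the single wt serum+LIF library their median log2 fold change was -1.47 in Mtgr1-/- and -0.78 in Prdm14-/-. The medians of all tested genes were -0.11 and -0.05 there. In Mtgr1-/- against Prdm14-/-, 4 of them were lower and 1 higher, where 21.1% of all tested genes were lower and 14.4% higher. Of 5 definitive endoderm genes, again against the rescues, 1 fell in Mtgr1-/- (Hhex, -1.18), and 2 rose and 3 fell in Prdm14-/-. Heart and smooth muscle genes gave 2 higher and 2 lower of 6 in Mtgr1-/- and 3 higher and 1 lower in Prdm14-/-, vascular genes 2 and 2 of 4 and then 0 and 2, and fibroblast genes 2 and 2 of 4 and then 1 and 0.

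**Figure D5:**
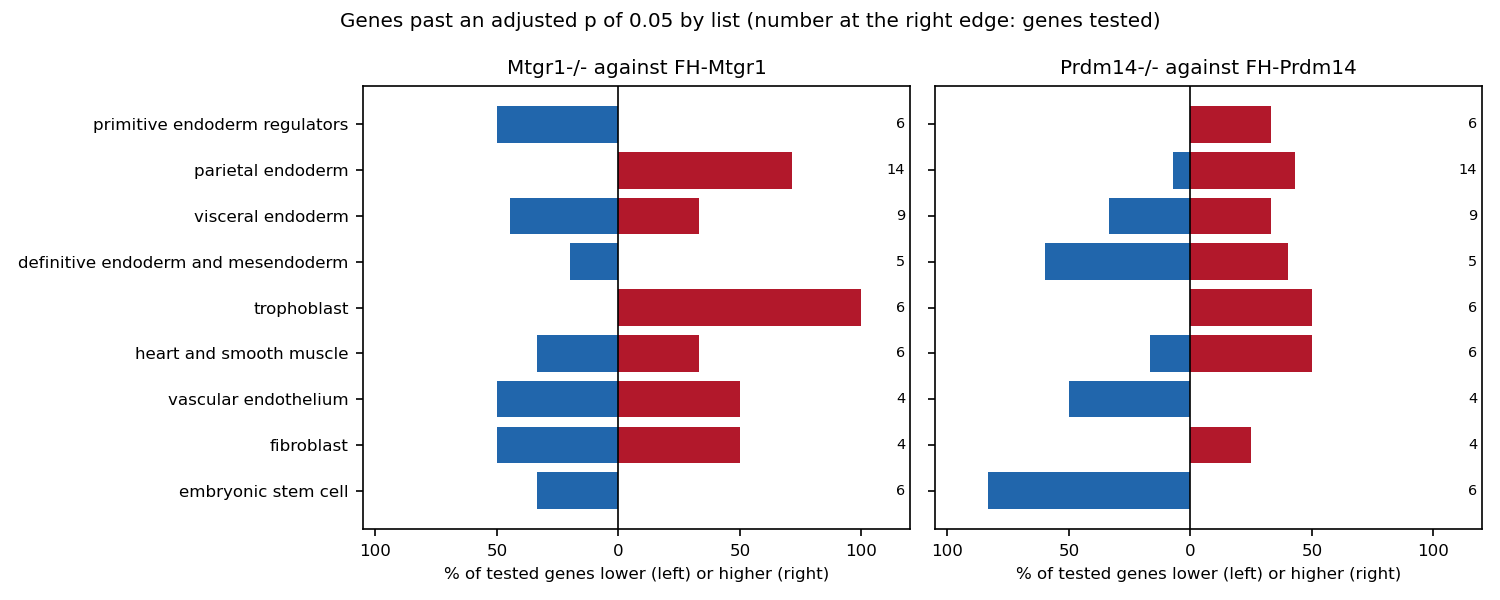
Share of the tested genes of each list that were lower (blue, left) or higher (red, right) at an adjusted p of 0.05, in percent, for Mtgr1-/- against FH-Mtgr1 and Prdm14-/- against FH-Prdm14; the number at the right edge is the number of genes tested. The primitive endoderm regulators have 3 of 6 lower on the left panel and 2 of 6 higher on the right, where parietal and trophoblast genes are higher on both.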

How the data were processed

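Oligo-dT purified RNA was sequenced on more than 1 kind of Illumina instrument, and which library used which is not given in the sources used here. The authors used TopHat with mm9 and then HTSeq with RefSeq models, and deposited RPKM values per gene, 1 file a library; the submitters' processing notes also list GRCm38, with no role given. Multiplying RPKM by gene length and dividing by the smallest step gave whole reads, within 0.01, for 100.0% of the values. On log2(RPKM + 0.5), the 13477 genes that reached 1 RPKM in 2 or more libraries entered 1 limma fit (limma 3.58.1, R 4.3.3) over 15 libraries with a mean for each of the 7 conditions, with Benjamini-Hochberg adjustment over all tested genes. The scripts were checked on simulated data. Alternatives were no filter, a wider filter, pseudocounts of 0.1 and 1, voom on the reads (at least 10 in at least 2 libraries, 15413 genes), median-of-ratios scaling, fits of the compared conditions alone, the clone as a block, and leaving out each library. Libraries of 1 condition differed beyond sampling noise (chi-square per degree of freedom of 3.42 to 69.2), and none were merged. Conditions came from the titles and genotype labels. The growth text attached to the wt 2i libraries also names the serum step, and they were taken as 2i from their titles.

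The labels give the parental clone of each mutant line, which pairs knockout, rescue and E294K libraries of 1 clone. Their deviations from the condition means had r = 0.299 (Prdm14-/- with FH-Prdm14), 0.04 (with E294K) and 0.08 (FH-Prdm14 with E294K), and 0.063, -0.182 and 0.028 in the Mtgr1 clones A3, C1 and C3. Genes named were the 8 members, the targeted genes, the 3 genes most like each tested member (highest level of at least 5 RPKM), the 2 most changed genes in each direction of each list, and every endocytic partner and PDGF gene. Members and lists were chosen with earlier results of these data known.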

Additional observations from a re-analysis of the deposited data

Results flagged for a closer look

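The effects of Mtgr1 loss and of Prdm14 loss, each against its own rescue, differed for 5 of the 6 tested primitive endoderm genes when the difference itself was tested in limma. Pdgfra entered the test through FH-Mtgr1 and the F10 knockout, where it is high, so its part in the 5 is limited. The difference in log2 fold change, Mtgr1 minus Prdm14, was -3.10 for Gata4, -2.31 for Gata6, -1.67 for Pdgfra, -1.70 for Dab2 and -1.69 for Cubn. Each value holds both rescues as well as both knockouts. Between the knockouts directly, Dab2 (0.25), Cubn (-0.22) and Pdgfra (-0.20) did not pass. Gata4 (-1.23) and Gata6 (-1.49) were lower in Mtgr1-/- with all libraries in the fit. Prdm14 averaged 98.1 RPKM in FH-Prdm14 beside 2.77 in wt serum+LIF. Dab2 averaged 4.61 RPKM in FH-Mtgr1 beside 1.74 in wt serum+LIF, and Pdgfra 1.78 beside 0.524. Gata4 averaged 4.95 in FH-Mtgr1 and 0.975 in FH-Prdm14 beside 2.67 in wt serum+LIF. In the same order Gata6 had 3.12 and 1.475 beside 1.56, and Cubn 2.26 and 0.489 beside 1.28. The 4 libraries of the Prdm14 side come from 2 clones, and 1 of these, F10, had higher levels of all 8 genes in the knockout. Without the F10 knockout library 4 of these 5 genes remained past the threshold and Cubn (-0.96, adjusted p = 0.103 in limma) did not. No cause was tested.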

How the results depend on the processing

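Of the single log2 fold changes recomputed under the alternatives, 605 values kept their direction and side of the threshold, 29 lost the threshold, 19 newly passed it and 13 changed sign, over 54 results. Fits of the compared conditions alone, which have fewer libraries to estimate the spread, called 5 genes in Mtgr1-/- against FH-Mtgr1, 1 in Prdm14-/- against FH-Prdm14, and 0 in Prdm14-/- against wt, E294K against Prdm14-/-, Mtgr1-/- against Prdm14-/- and 2i against serum; at an unadjusted p under 0.05 in limma those 4 held 1, 0, 3 and 3. With no filter, 1 gene was called in Prdm14-/- against FH-Prdm14, 0 in E294K against Prdm14-/- (2 unadjusted, limma) and 1 in 2i against serum, and a pseudocount of 1 left 1 there. Leaving out each library gave 1 to 2 calls in Prdm14-/- against wt, 1 to 3 in Prdm14-/- against FH-Prdm14, 0 to 3 in E294K against Prdm14-/-, 0 to 3 in Mtgr1-/- against Prdm14-/- and 1 to 2 in 2i against serum. In Mtgr1-/- against FH-Mtgr1 these gave 3 to 4, the 3 being Gata4, Gata6 and Pdgfra throughout.

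Signs that turned were all of genes not called, when 1 library was left out. Over those settings Gata4 spanned -0.48 to 0.96 in Prdm14-/- against wt and -1.21 to 0.23 in E294K against Prdm14-/-, and Gata6 -0.01 to 1.33 in Prdm14-/- against wt and -0.23 to 0.05 in E294K against FH-Prdm14. Sox17 spanned -0.25 to 1.04 in Prdm14-/- against FH-Prdm14. Pdgfra spanned -0.02 to 0.15 in Mtgr1-/- against wt, -0.07 to 0.62 in Prdm14-/- against wt, -0.62 to 0.07 in E294K against Prdm14-/- and -0.55 to 0.15 between the knockouts. Cubn spanned -0.02 to 0.12 in Mtgr1-/- against wt, -0.45 to 1.02 in Prdm14-/- against wt and -0.95 to 0.51 between the knockouts. With the clone as a replicate block, Cubn passed in Prdm14-/- against FH-Prdm14 (adjusted p = 0.0334 in limma, 3 genes called) and no other call changed. Foxa2 and Sox7, at 1 to 21 and 6 to 48 reads a library, are limited by depth. The cause of these shifts was not tested.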
